A study of Mus musculus with 3 samples.

Results

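Hyaluronan is a long, uncharged sugar polymer of the extracellular matrix, and the 10 genes described here make it, cut it or bind it. They are the synthases Has1, Has2 and Has3, the hyaluronidases Hyal1 and Hyal2, the receptor Cd44, the proteoglycan Vcan, the heavy-chain genes Itih2 and Itih5, and Tnfaip6. They were taken by name from a table of 46983 genes, and all 10 were found, each with at least 1 count. The libraries came from the leptomeninges of vehicle-treated mice, the inner covering of the brain, which was dissected, dissociated and sorted by flow cytometry into a pia-enriched fraction. There were 3 libraries of this 1 group, numbered 1 to 3 as in their labels. Strain, genotype, sex, age, the agent the vehicle served and the sorting gate were not given in the sources used here, nor was whether each library came from a separate animal. The p-values below therefore measure only the spread between these 3 libraries, which may be technical.

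Hyaluronan synthases sit in the plasma membrane and join UDP-glucuronic acid and UDP-N-acetylglucosamine into a chain that they push out of the cell. Hyaluronidases cut the chain, at the cell surface or in lysosomes, and lysosomal glycosidases finish the breakdown. Outside the cell the chain is anchored by receptors such as CD44, packed with proteoglycans such as versican, and crosslinked when TSG-6, the product of Tnfaip6, transfers heavy chains of the inter-alpha-trypsin inhibitor family onto it. In connective tissue, fibroblasts are a main source of this matrix.

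Library 1 held 21002860 counts in genes, library 2 held 28704952 and library 3 held 25338616. Values below are CPM, counts scaled to a common total on library sizes adjusted by TMM, and levels of different genes are compared only as CPM per kilobase of merged exon. A count of 0 allows up to 3 counts, which is 0.152, 0.101 and 0.116 CPM in libraries 1, 2 and 3, and such limits cover counting error only. All 7 fibroblast markers were present in every library, with a summed level of 24180, 29640 and 25830 CPM. Library 1 stood apart from the others in base composition and in markers of other cell types: its 8 macrophage and microglia markers summed to 12.3 CPM, against 260.5 and 749 CPM in libraries 2 and 3. None of these 8 had a count of 0. All 7 that passed the filter on low counts were called as varying by edgeR's goodness of fit, described below. Of all 14409 genes tested, 63 (0.437%) were called. Because these are bulk samples, fewer cells of a type and less RNA per cell cannot be told apart.

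The heavy-chain gene Itih5 had the highest level per kilobase of the 10 and the synthases Has2 and Has3 the lowest. In order of their mean log2 level per kilobase the genes ran Itih5, Hyal2, Itih2, Hyal1, Cd44, Tnfaip6, Has1, Vcan, Has2 and Has3. Of the 9 neighbouring pairs in this order, 3 had the same order in all 3 libraries, and for 2 of these the mean difference also exceeded its SD over libraries. These were Itih5 above Hyal2, by 1.28 ± 0.44 on the log2 scale (SD, n = 3), and Vcan above Has2, by 2.52 ± 1.05. The other 7 pairs of neighbours did not differ beyond their spread. Over all 45 pairs of the 10 genes, 38 had the same order in every library. An exact two-sided sign-flip permutation test over 3 libraries cannot give a p below 0.25, the value it gave for Itih5 over Hyal2, and the adjusted p over the 9 pairs was 0.56. Against all 14409 genes past the filter on low counts, 4 of the 10 lay above percentile 75 in mean level per kilobase. These were Itih5 at percentile 93.5, Hyal2 at 85.0, Itih2 at 83.3 and Hyal1 at 77.7.

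**Figure D1:**
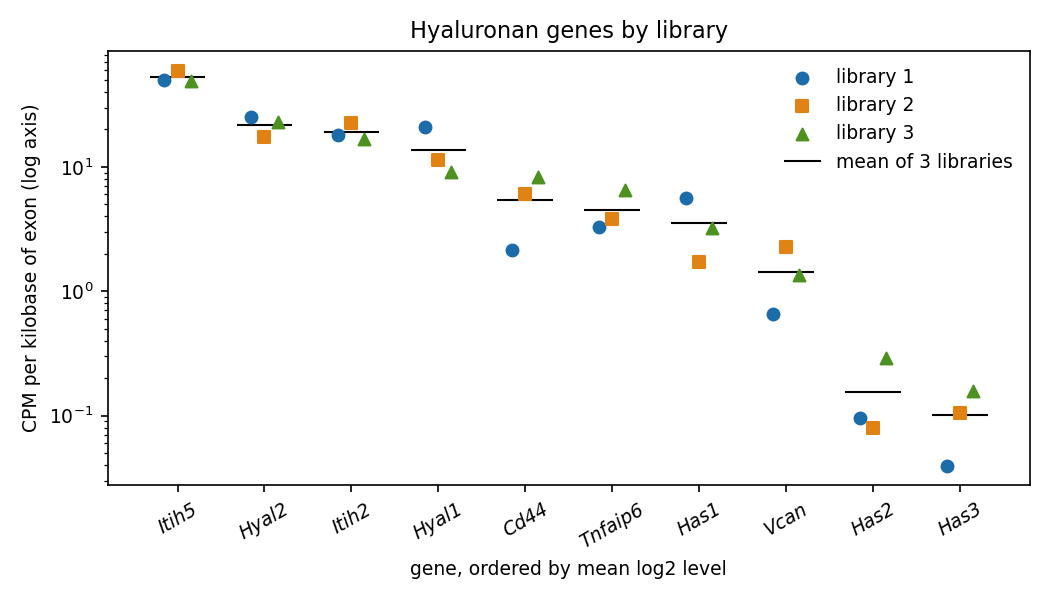
Level of each gene in CPM per kilobase of merged exon (log axis) in libraries 1, 2 and 3 (points), with the mean of the 3 as a bar. Itih5 lies between 49.1 and 59.6 in every library, while Has2 and Has3 lie below 0.30.

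Has1 supplied most of the synthase signal. Has1 (ENSMUSG00000003665.6) lies on chromosome 17 of GRCm38 at 17843323 to 17855205. It was at 5.64, 1.72 and 3.20 CPM per kilobase in libraries 1, 2 and 3, from 504, 231 and 375 counts. Library 1 held the highest value and library 2 the lowest, 3.28-fold apart. Has2 (ENSMUSG00000022367.7, chromosome 15, 56665627 to 56694539), the synthase required for heart development in the mouse embryo, had 8, 10 and 32 counts, which is 0.404, 0.336 and 1.23 CPM. The exact Poisson 95% intervals were 0.175 to 0.796 CPM in library 1, 0.161 to 0.618 in library 2 and 0.844 to 1.74 in library 3. The interval of library 3 lay above those of the others, but these intervals cover counting error only. Has3 (ENSMUSG00000031910.14, chromosome 8, 106870242 to 106884566) had 5, 20 and 26 counts, which is 0.253, 0.672 and 1.003 CPM, with library 1 lowest. Its interval in library 2 (0.411 to 1.04 CPM) overlapped those of libraries 1 (0.0820 to 0.590 CPM) and 3 (0.655 to 1.47 CPM), while that of library 3 lay wholly above that of library 1. Separate intervals do not show that libraries differ beyond the scatter of other genes. With no filter on low counts, edgeR's goodness of fit gave an unadjusted p of 0.44 for Has2 and 0.53 for Has3. Has3 shares 352 exonic bases with Chtf8, a protein-coding gene on the opposite strand.

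Per kilobase, Has1 made up 97.7%, 90.3% and 87.7% of the sum over the 3 synthases in libraries 1, 2 and 3, a mean of 91.9% ± 5.16 (SD, n = 3), or 89.0% without library 1. Has2 gave 4.60% ± 3.19 and Has3 3.51% ± 2.52 of that sum. The level of Has1 was 59.1, 21.7 and 11 times that of Has2 in the 3 libraries, and 142, 16.3 and 20.4 times that of Has3. Has1 was therefore the leading synthase in 3 of 3 libraries, although its margin differed between them. The annotated exons of Has1 include a retained intron, and the coding transcript alone is 2.10 kb of the 4.52 kb of merged exon. With the longest coding transcript of each gene as its length, a setting chosen after seeing the data, Has1 was at 7.59 ± 4.27 CPM per kilobase (SD, n = 3) rather than 3.52 ± 1.98. In this setting it ranked above Cd44 and Tnfaip6 by mean log2 level, but it lay above Cd44 in library 1 only, so these did not differ beyond their spread. Its share of the synthases in this setting was 95.9%.

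The synthases are paralogs, so the sequences show how far a read of 50 bases can tell them apart. The stretch of 60 coding bases best conserved between them is printed here 5′ to 3′ on the coding strand, with the 44 bases alike in all 3 in capitals. It lies on GRCm38 at chr17:17844182-17844241 for Has1 (minus strand, coding bases 1135 to 1194), chr15:56668214-56668273 for Has2 (minus strand, 1045 to 1104) and chr8:106878220-106878279 for Has3 (plus strand, 1057 to 1116).
Has1: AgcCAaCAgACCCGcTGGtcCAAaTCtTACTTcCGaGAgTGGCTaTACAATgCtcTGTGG
Has2: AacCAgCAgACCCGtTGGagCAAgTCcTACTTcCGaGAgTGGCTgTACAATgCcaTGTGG
Has3: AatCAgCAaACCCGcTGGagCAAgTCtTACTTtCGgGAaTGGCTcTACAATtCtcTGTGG
Even here the differences recur every few bases. Over the whole coding sequence, identity was 62.0% between Has1 and Has2, 67.5% between Has1 and Has3 and 68.2% between Has2 and Has3. The longest run of identical bases was 17, 17 and 23 for the same pairs, shorter than a read. None of the 2046 windows of 50 bases in the Has1 coding transcript, and none of the 5863 in that of Has3, occurred in a transcript of another gene. In Has2, 88 of 4188 windows (2.10%) occurred in Has2os, its antisense RNA. Has2os itself had 0, 2 and 5 counts. The libraries were made with a kit that does not mark strand, so reads from the 182 exonic bases that Has2 and Has2os share cannot be assigned to either. The same holds for the 352 exonic bases that Has3 shares with Chtf8, which the windows of the Has3 coding transcript did not show.

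**Figure D2:**
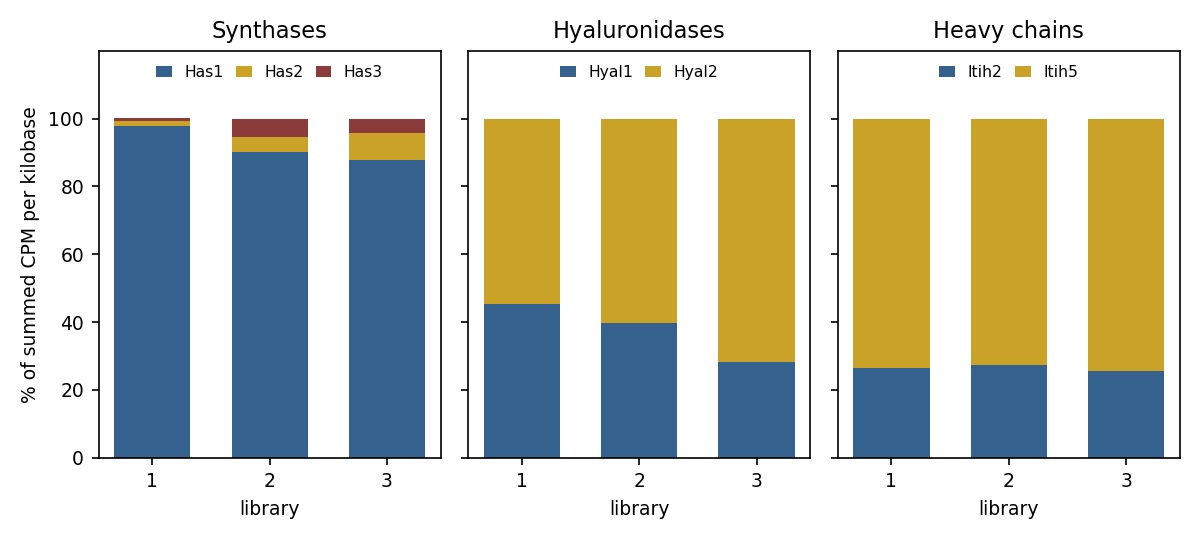
Share of each gene in the summed CPM per kilobase of its class, as stacked bars for libraries 1, 2 and 3. Has1 takes 87.7% to 97.7% of the synthases, Hyal1 28.3% to 45.2% of the hyaluronidases, and Itih5 72.7% to 74.5% of the heavy chains.

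The hyaluronidases Hyal1 and Hyal2 both stood well above the synthases per kilobase. Hyal2, which encodes a hyaluronidase tethered to the cell surface by a lipid anchor, was at 25.3, 17.3 and 23.04 CPM per kilobase in libraries 1, 2 and 3 (21.9 ± 4.15, SD, n = 3). Its highest and lowest libraries were 1.47-fold apart. Hyal1, the lysosomal enzyme, was at 20.9, 11.3 and 9.09 CPM per kilobase (13.8 ± 6.29), with library 1 highest and a 2.30-fold span. Hyal1 lay below Hyal2 in each library, at 0.826, 0.656 and 0.394 of its level.

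That order rests on how the length of Hyal1 is counted. The genes are neighbours on chromosome 9 of GRCm38, with Hyal2 at 107567945 to 107572779 and Hyal1 at 107576927 to 107581710, 4.15 kb apart and on the same strand. Of the 3.78 kb of merged Hyal1 exon, 1961 bases (51.9%) also belong to exons of the overlapping genes Naa80 (1920 bases) and Hyal3 (159 bases). The share of 50-base windows of its longest coding transcript that occurred in another gene was 63.2%, against 0.00% for Hyal2. These windows occurred in 273 other genes in all, so the sharing was not with the overlapping genes only. A counter that sets aside reads in overlapping exons would leave the bases shared with Naa80 and Hyal3 uncounted. The counting mode was not given in the sources used here. The length over unshared exon leaves out the bases of overlapping genes only. Over unshared exon only, a setting chosen after seeing the data, Hyal1 was at 43.5, 23.6 and 18.9 CPM per kilobase, above Hyal2 in libraries 1 and 2 and below it in library 3. Its share of the pair then was 55.3% ± 9.31 (SD, n = 3) instead of 37.7% ± 8.64. Which of the hyaluronidases was the more abundant was thus not resolved.

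Cd44 and Vcan spanned wide ranges over the libraries as counted, 1.94 and 1.79 on the log2 scale. Has1, Has3 and Has2 came close, at 1.70, 1.65 and 1.61, beside 0.96 for Tnfaip6 and 1.20 for Hyal1. With trends with GC content and length removed the ranges were 1.43 for Cd44, 0.89 for Vcan, 0.82 for Tnfaip6 and 0.998 for Hyal1. Vcan then lay below Hyal1. Has1, at 1.87, then had the widest range, and Has2 (1.70) and Has3 (1.585) lay above Cd44 too. Cd44 encodes the main cell-surface receptor for hyaluronan, found on fibroblasts and on most leukocytes. The gene (ENSMUSG00000005087.17) lies on chromosome 2 at 102811141 to 102901665. It was at 14.4, 40.7 and 55.8 CPM in libraries 1, 2 and 3, from 286, 1211 and 1446 counts. The highest and lowest libraries were 3.86-fold apart, with library 1 low. The summed macrophage markers, given above, were low in the same library. The 6 lymphocyte markers summed to 2.68, 53.8 and 62.1 CPM, where Cd3g and Ms4a1 had no count in library 1, Cd3e none in library 2 and Cd3g none in library 3. Single markers went both ways, since Cd3e, a T-cell marker, had 12, 0 and 7 counts, highest in library 1, while Ms4a1 had 0, 186 and 249. The part of these cells in the level of Cd44 was not tested.

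Vcan encodes versican, a large chondroitin sulphate proteoglycan that binds hyaluronan through its amino-terminal domain. The gene (ENSMUSG00000021614.16) lies on chromosome 13 at 89655312 to 89742509. It was at 9.50, 33.0 and 19.5 CPM in libraries 1, 2 and 3, from 188, 983 and 505 counts. Library 1 was again lowest and library 2 highest, 3.48-fold apart. Its merged exons span 14.5 kb, the longest of the 10, so that its level per kilobase was only 1.43 ± 0.82 CPM (SD, n = 3), at percentile 27.0 of the genes tested. Tnfaip6 (ENSMUSG00000053475.5, chromosome 2, 52038009 to 52056686), whose product TSG-6 transfers heavy chains to hyaluronan, was at 5.66, 6.52 and 11.1 CPM, from 112, 194 and 288 counts. Library 3 was highest and the others lay close together. Per kilobase Tnfaip6 was at 4.54 ± 1.71 CPM, within the spread of Cd44 at 5.46 ± 3.09 CPM.

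As counted, Itih5 and Itih2 had the narrowest ranges of the 10 genes over the libraries, at 0.28 and 0.41 on the log2 scale, and Hyal2 came next at 0.55. With trends with GC content and length removed the order changed, with Hyal2 at 0.32, Itih5 at 0.33 and Itih2 at 0.39. Itih2 and Itih5 encode heavy chains of the inter-alpha-trypsin inhibitor family, which in plasma are joined to the light chain bikunin. Itih5 was at 394, 471 and 388 CPM in libraries 1, 2 and 3, from 7797, 14004 and 10060 counts, a span of 1.21-fold. Itih2 was at 59.3, 74.0 and 55.6 CPM, from 1173, 2203 and 1443 counts, a span of 1.33-fold. In both genes library 2 was highest and libraries 1 and 3 lay close together. Per kilobase Itih5 (52.8 ± 5.84 CPM, SD, n = 3) was 2.79, 2.67 and 2.93 times Itih2 (19.0 ± 2.94 CPM), so the ratio varied less than either level.

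The pair lies head to head on chromosome 2 of GRCm38, with Itih2 at 10094593 to 10131396 on the minus strand and Itih5 at 10153571 to 10256529 on the plus strand, 22.2 kb apart. Their promoters are shown because these neighbours held the most even of the 4 ratios taken between genes of a class. RefSeq gives the windows, 250 bases before to 50 after the transcription start on GRCm38.p6, at chr2:10130634-10130933 for Itih2 and chr2:10153293-10153592 for Itih5, printed 5′ to 3′ on the strand of the gene. The window of Itih2 lies wholly within the span of that gene given above, which comes from GENCODE. Its RefSeq start is thus downstream of the outermost start in GENCODE. Capitals mark TGANTCA, the site of AP-1 factors, found in the window of Itih2 only. Neither TATAAA nor CCAAT stood in these windows.
Itih2: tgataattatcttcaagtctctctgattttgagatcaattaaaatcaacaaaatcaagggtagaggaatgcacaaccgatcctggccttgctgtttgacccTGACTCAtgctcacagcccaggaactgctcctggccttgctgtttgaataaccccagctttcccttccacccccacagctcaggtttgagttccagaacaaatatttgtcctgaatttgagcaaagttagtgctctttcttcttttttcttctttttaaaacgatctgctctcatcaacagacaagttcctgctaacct
Itih5: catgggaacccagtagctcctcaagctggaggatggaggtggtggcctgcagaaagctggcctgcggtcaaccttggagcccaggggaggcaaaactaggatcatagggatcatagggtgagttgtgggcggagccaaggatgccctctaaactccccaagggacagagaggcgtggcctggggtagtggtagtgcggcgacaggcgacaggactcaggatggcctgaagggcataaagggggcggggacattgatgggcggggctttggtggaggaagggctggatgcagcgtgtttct
The windows differ in base composition, with 42.3% GC and 2 CpG dinucleotides in Itih2 against 60.7% and 9 in Itih5, where the median of all 32851 RefSeq windows was 52.7% and 7. Windows were listed for 8 of the 10 genes. On either strand, TGANTCA stood in 2 of the 8 (Itih2 and Tnfaip6) and in 7.81% of all windows. CCAAT stood in 4 of the 8 (Has1, Hyal1, Tnfaip6 and Vcan) and in 37.4% of all, and TATAAA in 0 of the 8 and in 13.6% of all. No motif contains another, and a match describes these letters only.

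None of the 10 genes was called as varying between the libraries. With 1 group there is no contrast between conditions, so the test was edgeR's goodness of fit, which asks whether the counts of a gene scatter over the 3 libraries more than genes of its abundance do. The filter on low counts, which asks for the CPM of about 10 counts in every library, kept 8 of the 10, all but Has2 and Has3. Of those 8, 0 were called at a Benjamini-Hochberg adjusted p of 0.05, where the background was 63 of 14409 genes, or 0.437%. At an unadjusted p under 0.05 it was 1 of 8, Cd44, where the background was 7.04%. The edgeR adjusted p for Cd44 was 0.488 (unadjusted 0.0204), for Vcan 0.757 (unadjusted 0.0596) and for Has1 0.876 (unadjusted 0.0958). For the other 5 it was 0.9997. With DESeq2 size factors, library totals, other filters, another dispersion, trends with GC content and length removed, and each library left out, the count of these genes called by edgeR was 0 as well. The lowest edgeR adjusted p in these fits was 0.38, for Has1 with the trends removed, and without library 1 the lowest was 0.9996. The median range over libraries of the 8 was 1.08 on the log2(CPM + 0.1) scale, beside 0.76 over all genes tested.

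Differences of library 1 from the others were partly shared with genes of like base composition. Over the 14409 genes the genes lowest in GC content (median 39.9%) had a median log2 difference of library 1 from the mean of libraries 2 and 3 of -1.22, and those highest in it (median 59.4%) of 0.43, in groups of equal size. Cd44 (44.5% GC) stood at -1.71 in this difference and Vcan (43.7% GC) at -1.41. After smooth trends with GC content and exon length were removed, they stood at -1.13 and -0.65. The difference of Tnfaip6 (41.1% GC) turned from -0.58 to 0.21, that of Has2 from -0.60 to 0.26, that of Itih5 from -0.12 to 0.25 and that of Itih2 from -0.11 to 0.07. No direction can be given for these 4 genes. Has1 went the other way, standing 1.26 higher in library 1 as counted and 1.41 higher after the trends were removed. For Has1 the trends used the GC content of its longest annotated transcript (3.54 kb) and its merged exon length (4.52 kb). Its coding transcript is 2.10 kb and was not used in the trends, so the trend-removed values of Has1 need not hold for it. Hyal1 stood 1.04 and 0.81 higher, and Hyal2 0.34 and 0.01 higher. Removal of the trends narrowed the range over libraries for 6 of the 8 genes tested.

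**Figure D3:**
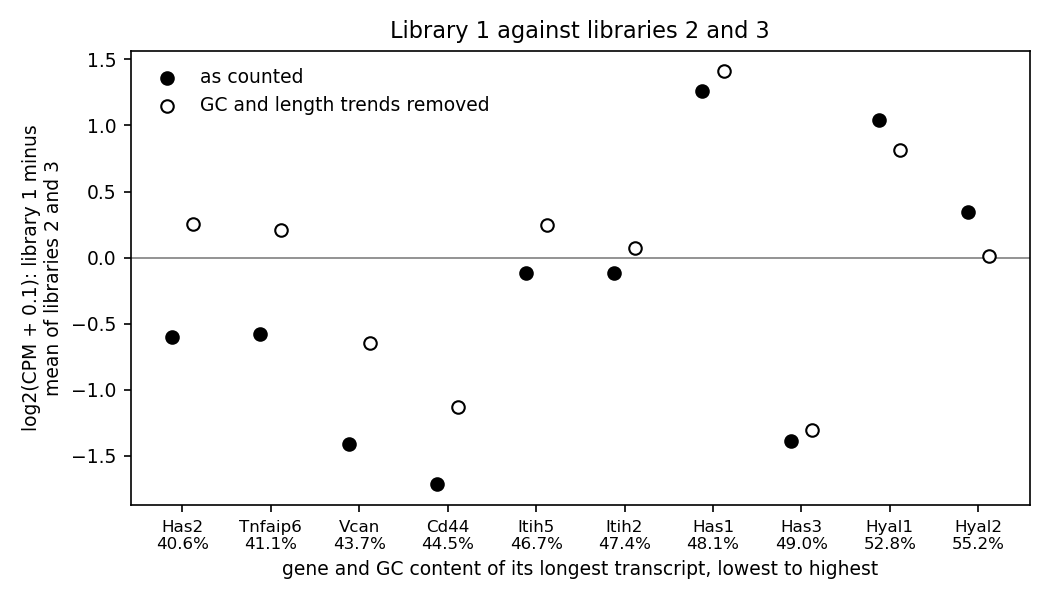
Level in library 1 minus the mean of libraries 2 and 3, in log2(CPM + 0.1), for each gene in order of the GC content of its longest annotated transcript, as counted (filled) and after removal of trends with GC content and length (open). Cd44, Vcan and Has3 lie below 0 and Has1 and Hyal1 above 0 either way, while Has2, Tnfaip6, Itih5 and Itih2 cross 0.

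Markers of some other cell types also differed between library 1 and the others, while those of further types were highest in library 3. Of the 5 choroid plexus markers, all tested, 2 were called as varying (Kl and Enpp2), beside 0.437% of all genes. None of the proliferation, erythroid, mural, Schwann cell, endothelial or neutrophil markers tested was called. The 5 markers of choroid plexus epithelium summed to 78.3, 1632 and 2373 CPM in libraries 1, 2 and 3. Most of this was Enpp2, at 41.7, 1503 and 2237 CPM. Folr1, Kl, Clic6 and Otx2 were lowest in library 1 too, with the narrowest gap in Otx2 (17.8, 35.7 and 30.9 CPM). The 4 markers of proliferating cells summed to 4.65, 30.3 and 26.6 CPM, and the 3 of erythroid cells to 747, 185 and 312 CPM. Mural markers (5 genes) summed to 2612, 2108 and 4214 CPM and those of Schwann cells (5 genes) to 2989, 2613 and 4377 CPM, both highest in library 3. Endothelial markers (5 genes) summed to 87.3, 60.4 and 70.1 CPM, highest in library 1, but single markers went both ways. Kdr and Egfl7 were highest in library 1, Cdh5 in library 2, and Pecam1 and Cldn5 in library 3, with Cldn5 lowest in library 1. The 4 neutrophil markers summed to 2.22, 2.66 and 4.51 CPM. Of these S100a8 and Ngp had no count in library 1, where Camp, at 2.17, 0.470 and 0.656 CPM, was highest. Lists for arachnoid barrier, lymphatic endothelial, astrocyte and neuron markers had sums between 37.7 and 93.3 CPM, which hide differences between single markers. Of the arachnoid list, Dpp4 (0.808, 7.12 and 6.21 CPM), Cdh1 and Krt18 were lowest in library 1. Krt19 (38.5, 19.8 and 13.6 CPM) and Cldn11 were highest there. Every astrocyte marker was highest in library 3, with Aqp4 at 11, 17 and 115 counts. Of the neuron markers, Syt1 and Rbfox3 were highest in library 1, Snap25 in library 2 and Tubb3 in library 3. The lymphatic sum was nearly all Pdpn, at 63.9, 67.1 and 58.5 CPM in libraries 1, 2 and 3. The others of that list had few counts: Prox1 3, 2 and 29, Flt4 39, 9 and 11, and Ccl21a 45, 1 and 7. The part of these cells in the levels of the hyaluronan genes was not tested.

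The wider pathway was read from 45 further genes in 7 lists, of which 34 passed the filter and 0 were called as varying, beside the same 0.437% of all genes. At an unadjusted p under 0.05 it was 4 of the 34 (Ugp2, Gnpnat1, Stab1 and Tlr4), beside 7.04% of all genes. With trends with GC content and length removed, Stab1 passed the threshold, at an edgeR adjusted p of 0.0476 where it was 0.455 as counted. Ugp2, Gnpnat1 and Tlr4 are low in GC content, at 39.1%, 39.0% and 39.4%. Their log2 differences of library 1 from the mean of libraries 2 and 3 were -2.5, -1.9 and -1.9 as counted. With the trends removed these were -1.3, -0.7 and -0.7, and none of these genes was called. Enzymes that make the sugar precursors were all present, with 7 of 7 past the filter and a median log2 level per kilobase of 3.89, beside 1.87 over all genes tested. The highest were Uap1, which forms UDP-N-acetylglucosamine, at 106, 70.0 and 184 CPM in libraries 1, 2 and 3, and Ugdh, which forms UDP-glucuronic acid, at 138, 125 and 187 CPM. Per kilobase they were at 29.96 ± 14.6 and 22.2 ± 4.86 CPM (SD, n = 3), above the sum of the 3 synthases in every library.

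Among the other degrading enzymes, 6 of 10 passed the filter and 4 had no count in any library, namely Hyal4, Hyal5, Hyal6 and Spam1, the last of which encodes a hyaluronidase of sperm. Hexa, which encodes a subunit of a lysosomal glycosidase, had the highest level per kilobase of this list, at 230 ± 11.4 CPM (SD, n = 3). It was at 440, 451 and 484 CPM in libraries 1, 2 and 3, and so close to even over them.

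Of the other receptors, 6 of 7 passed the filter, with a median log2 level per kilobase of 0.93. Lyve1, a receptor of lymphatic endothelium and of some macrophages, was at 13.7, 8.43 and 15.5 CPM. Layn, which encodes the hyaluronan receptor layilin, was at 7.68, 6.18 and 10.4 CPM. Per kilobase they were at 4.30 ± 1.26 and 3.36 ± 0.90 CPM, and Cd44 at 5.46 ± 3.09 CPM overlapped both. Of the other receptors, 3 were lowest in library 1. Stab1 was at 5.71, 16.9 and 27.9 CPM, Tlr4 at 6.47, 22.9 and 26.6 CPM, and Hmmr at 0.253, 3.19 and 2.35 CPM. These 3 were chosen after their values were seen.

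Only 3 of the 7 other lecticans and link proteins passed the filter, and their median log2 level per kilobase was -0.82. Acan, which encodes the cartilage proteoglycan aggrecan, was at 47.9, 55.6 and 46.3 CPM and per kilobase at 6.69 ± 0.66 CPM (SD, n = 3). Vcan, of the same lectican family, lay lower per kilobase in each library. Bcan, the brain lectican brevican, had 53, 1 and 241 counts, and Hapln2, a link protein gene, had 1, 0 and 1.

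Of the 5 other heavy-chain and matrix-assembly genes, Itih1 and Ambp, which encodes bikunin, had no count in any library. Itih3 was at 1.72, 2.92 and 2.39 CPM and Itih4 at 0.606, 1.85 and 1.77 CPM, far below Itih2 and Itih5 in each library. The 6 proteases that cleave versican all passed the filter. Adamts1 was at 284, 248 and 226 CPM and Adamts4 at 211, 122 and 121 CPM, or 47.7 ± 5.50 and 31.4 ± 10.7 CPM per kilobase, both above Vcan in every library. All 3 genes that link the tail of CD44 to the actin cortex passed it as well, led by Ezr (ezrin) at 376, 356 and 396 CPM and Msn (moesin) at 235, 329 and 438 CPM. Per kilobase Ezr was at 114 ± 6.08 CPM and Msn at 52.8 ± 16.0 CPM.

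**Figure D4:**
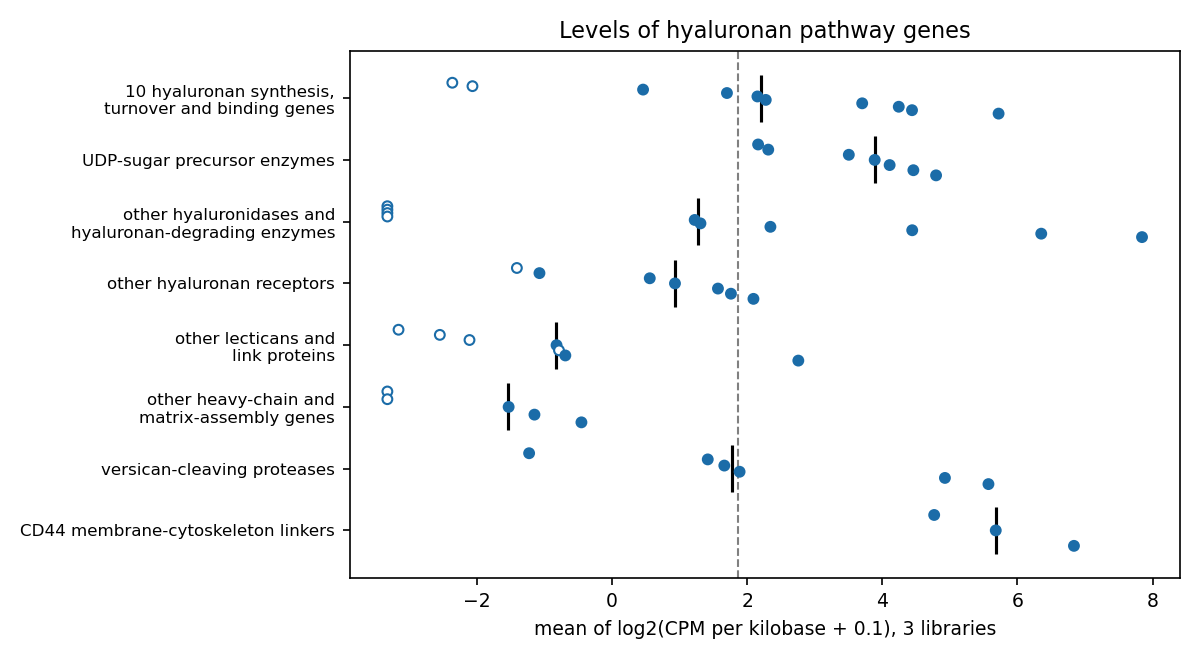
Mean over 3 libraries of log2(CPM per kilobase + 0.1) for the 10 hyaluronan genes and the 7 further lists, where each point is a gene (filled if past the filter on low counts), the short bar is the median of the list and the dashed line the median of all genes tested (1.87). The lists of precursor enzymes (3.89) and of CD44 linkers (5.68) have medians above that line, and the lists of other heavy-chain genes (-1.53) and other lecticans (-0.82) below it.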

How the data were processed

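The authors deposited a table of raw counts per gene for 3 libraries of 1 group. Per the labels, 2 ng of RNA (integrity number 9.7 to 10) was amplified over 12 cycles with SMART-Seq v4, 10 ng of cDNA was made into libraries with 8 cycles of PCR, and paired reads of 50 bases were sequenced. Per the submitters' processing notes, HTSeq 0.5.3, DESeq2 1.22.1 and the mm10 build were used; the aligner and strand setting are not given in the sources used here. The 5 counter rows that name no gene made up 45.6%, 39.1% and 39.6% of libraries 1, 2 and 3 and were left out.

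Genes were filtered with edgeR 4.0.16 (R 4.3.3) filterByExpr at a minimum of 10 counts, and library sizes scaled by TMM. Variation between libraries was tested with edgeR's goodness of fit at the trended dispersion over all 14409 genes, with Benjamini-Hochberg adjustment at 0.05, and the procedure was tested on simulated data. Log2 values had a pseudocount of 0.1. Trends with GC content and length were fitted with mgcv 1.9.3. Lengths and positions came from GENCODE M21 (GRCm38), which held 46488 (98.95%) of the gene identifiers, and promoter windows from RefSeq. Cemip2 is listed under its older symbol Tmem2. The members and lists were chosen with earlier results of these data known. The text names all 10 members, the 2 genes with the highest level per kilobase of each pathway list, and those with at most 3 counts in all. 1 gene that this rule names is not reported here. Genes alike in pattern were not ranked, since 3 libraries give none.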

Additional observations from a re-analysis of the deposited data

How the results depend on the processing

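The count of genes called as varying among all those tested (63) was 136 with no filter on low counts, 182 with a filter on a mean of 10 counts and 105 with trends with GC content and length removed. Leaving out a library, and so fitting fewer samples, gave 13 (library 3 out) to 29 (library 2 out). The count among the hyaluronan genes was 0 in all 9 alternatives, with 0 to 2 at an unadjusted p under 0.05. The number of neighbouring pairs in 1 order (3) ranged from 3 to 6 when each library was left out, where fewer libraries have to be alike: it was 6 without library 1 and 6 without library 2, and without library 2 Cd44 ranked below Has1. The share of Hyal1 among the hyaluronidases (37.7%) was 55.3% over unshared exon, by construction of the length. The mean levels of the 10 genes are no test of stability, since a mean over 2 of the same 3 libraries stays within 1 SD by construction. No paired analysis was possible because a single group leaves nothing to pair. Depth limited Has2 and Has3, which had at most 32 counts in a library.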
